A study of Homo sapiens with 2 samples.

Results

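The stretch of chromosome band 17p11.2 that holds the genes of the U3 small nucleolar RNA carried 10 of the 6943 peaks in a map of Flag-tagged EVI1 made by chromatin immunoprecipitation and sequencing (ChIP-seq). Its members were selected on position alone, as peaks of chromosome 17 with a midpoint from 18850000 to 19150000 in the genome build hg18. The stretch had been picked with this peak list in view, so its peak number and spacing are given as a description without a test. The cells were SKOV-3, an established human ovarian carcinoma line, transfected with a pCMV plasmid for Flag-Evi1Δ324 and fixed 3 days later. MECOM encodes EVI1, which binds DNA through a pair of zinc finger domains, and the Δ324 form lacks part of its first zinc finger domain. The tagged protein was thus supplied by a plasmid with a strong viral promoter, and precipitated with the Flag M2 antibody. Of the 2 libraries, 1 from the precipitate and 1 from the input chromatin, only the peak list of the former was analysed here, and neither has a replicate. A precipitation from cells without the tagged protein was not analysed here.

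U3 is a box C/D small nucleolar RNA that base-pairs with the precursor of ribosomal RNA and is needed for the cleavages that release the small subunit RNA. Unlike most such RNAs in vertebrates, which are cut out of introns of host genes, U3 is made from genes of its own by RNA polymerase II. Several near-identical copies of the gene are expressed in human cells. In such repeated DNA a short sequence tag can fit several places, and peaks depend on how the tags with several possible origins were handled.

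The U3 copies on 17p were SNORD3A, SNORD3B-1, SNORD3B-2, SNORD3C and SNORD3D in the RefSeq annotation of GRCh38.p14, which held 12 genes in all with the name SNORD3 followed by a letter. Their order there was SNORD3B-1 and SNORD3B-2 as direct neighbours, then SNORD3D on its own, then SNORD3A and SNORD3C as direct neighbours. The genes around them were also repeated. GRAP, which encodes an adaptor protein of the GRB2 family, stood before the first pair, and its close relative GRAPL stood between SNORD3D and SNORD3A. A pseudogene of KYNU, the gene of the kynureninase enzyme, directly followed each pair (KYNUP2 and KYNUP3), and another (KYNUP1) directly preceded the second pair. SNORD3A was taken to lie at about 19.03 Mb of hg18, the position used when the stretch was picked. Starts and ends of the U3 genes in hg18 were not used here, so peaks were not assigned to single copies.

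The repetition can be read in the reference sequence of the promoters that flank these genes. The RefSeq promoter table (GRCh38.p14, 300 bases around each start) held 6 of the 15 genes in the row from GRAP to EPN2, which encodes an endocytic adaptor; the promoters of the U3 genes were not analysed here. These promoters were compared after the peaks had been seen. The promoters of GRAP and GRAPL were identical over all 300 bases, on opposite strands (chr17:19046958-19047207, minus, and chr17:19127339-19127588, plus, for the bases before the start). Those of the non-coding RNA genes GRAPL-AS1 (minus strand) and LOC388436 (plus strand) were identical to each other too. A run of 282 bases of both recurred at LOC102724624 (chr17:19089193-19089442, plus, for the bases before the start, past which the run extends). The 250 bases before the start are shown for 1 copy of each family, and capitals mark the bases that recur exactly at another gene of the row.
GRAP and GRAPL: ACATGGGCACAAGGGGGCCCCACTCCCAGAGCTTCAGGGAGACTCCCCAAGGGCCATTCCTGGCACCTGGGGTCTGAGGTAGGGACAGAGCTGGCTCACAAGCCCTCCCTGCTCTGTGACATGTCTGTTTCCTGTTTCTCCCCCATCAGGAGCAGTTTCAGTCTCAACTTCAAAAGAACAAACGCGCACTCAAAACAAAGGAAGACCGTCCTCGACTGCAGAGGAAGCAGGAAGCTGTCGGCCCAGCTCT
LOC102724624: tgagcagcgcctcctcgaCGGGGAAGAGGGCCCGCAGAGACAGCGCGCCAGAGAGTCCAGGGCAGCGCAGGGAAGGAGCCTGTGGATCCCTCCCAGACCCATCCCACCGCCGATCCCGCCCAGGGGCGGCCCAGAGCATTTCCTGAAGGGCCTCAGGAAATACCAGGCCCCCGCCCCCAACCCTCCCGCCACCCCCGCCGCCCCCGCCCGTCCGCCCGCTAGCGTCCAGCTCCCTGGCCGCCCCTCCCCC
In the second sequence the 232 capitals are the part of the shared run before the start. Of the 6 promoters of the row, 4 had an identical copy at another gene and place, against 194 of 27305 (0.710%) in the whole table and 6 of 1262 on chromosome 17, counted at the first start listed for each gene. Both comparison counts include the 4 of the row. The other pairs in the row were 45.1% to 51.2% identical in a global alignment and shared runs of at most 8 bases. The letters GACAAGATA and GAAGATGAG, known from the first and second zinc finger domains of EVI1, were found on either strand in 0 of the 6 promoters, against 0.110% and 0.348% of all promoters. The octamer ATGCAAAT (1.80% of all) and the AP-1 letters TGACTCA (4.92%) were also found in 0 of 6. Because 4 of the 6 promoters are identical copies of one another in pairs, the 6 are not separate sequences. At such low shares 0 of 6 is also the likely outcome, so no conclusion is drawn from it. These windows belong to another build than the peaks, so whether a peak lies on any of them was not tested.

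The 10 peaks are numbered here from the short-arm end towards the centromere. Each has a deposited fold, read as the ratio of the peak to a background, and a count of tags, of which 5 is the lowest in the list. Peak 1 (chromosome 17, 18905956 to 18906168) was 213 bp wide and had 10 tags and a fold of 12.96. Peak 2 (18907858 to 18907994) had 6 tags and a fold of 19.38. Peak 3 (18908019 to 18908106) had 5 tags and the highest fold of the stretch, 24.22. These 3 peaks form a first run, and peaks 2 and 3 lay only 24 bp apart.

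Peak 4 (19025777 to 19025850) lay 118 kb after peak 3 but only 5.91 kb before peak 5. It had 5 tags and a fold of 15.14, and was the narrowest of the stretch at 74 bp. A second run, set out without peak 4, began at peak 5. Both peak 4 and this run lay near the position taken for SNORD3A, about 19.03 Mb. That position is too coarse to set one of them beside the gene. Peak 5 (19031764 to 19031909) had 6 tags and a fold of 19.61. Peak 6 (19031961 to 19032111) had 15 tags, the most in the stretch, and the lowest fold, 12.89. Peak 7 (19032259 to 19032388) had 5 tags and a fold of 14.7. Together these 3 peaks filled 427 bp of a 625 bp interval, with gaps of 51 and 147 bp.

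The second run ended in another close pair. Peak 8 (19033719 to 19033842) had 5 tags and a fold of 19.61. Peak 9 (19033856 to 19034043) followed after 13 bp with 8 tags and a fold of 18.31. Peak 10 (19076722 to 19076853) stood alone, 42.7 kb beyond, with 5 tags and a fold of 14.7. Most members thus belonged to the runs, and each run combined its deepest peak with a pair of narrowly separated peaks after it in coordinate order.

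**Figure D1:**
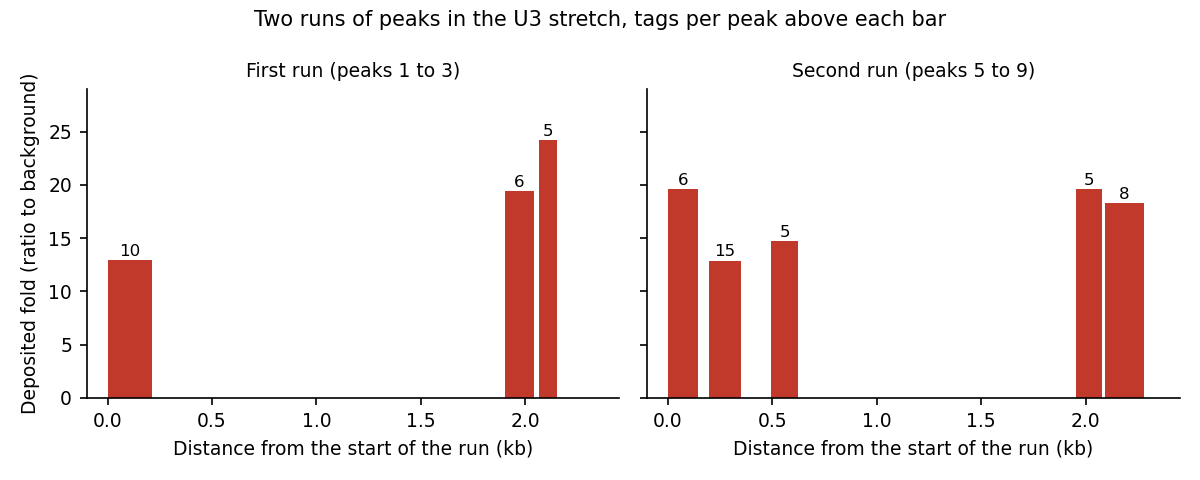
Peaks of the first run (left) and the second run (right) of the U3 stretch: the x axis is the distance from the start of each run in kb, bar height is the deposited fold, bar width is the peak's width, and the number above a bar is its tags. Both runs have a deep peak of low fold (10 and 15 tags, folds 12.96 and 12.89) in their first part and a close pair centred 1920 and 1845 bp after it.

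As set out here, the 2 runs had nearly the same length, 2151 bp for the first and 2280 bp for the second, a difference of 129 bp. Their centres were 126 kb apart. The near match in length depends on leaving out peak 4, which lay 5913 bp before the second run. With peaks at most 10 kb apart joined, the spans were 2151 and 8267 bp. From the midpoint of the deepest peak to the centre of the close pair was 1920 bp in the first run and 1845 bp in the second. The close pairs had 11 and 13 tags. In the first part of the run the first had 1 peak where the second had 3, with 10 and 26 tags. The whole runs held 21 tags (exact Poisson 95% interval 13.0 to 32.1) and 39 tags (27.7 to 53.3), a ratio of second to first of 1.86 (exact conditional interval 1.07 to 3.32). Per kb of run the ratio was 1.75 (1.01 to 3.13). These intervals cover counting error only. The sums hold only tags inside listed peaks, which have at least 5 tags each. Tags elsewhere in the runs were not counted, and the intervals do not allow for this. The runs and their close pairs were set out after their values had been seen, so the lengths, the distances and the ratio are a description.

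Tags were few at every member. Exactly 5 supported 5 of the 10 peaks, and 3 had 8 or more. For exactly 5 tags the share was 5 of 9 in the rest of the band and 49.5% in the rest of chromosome 17. In the rest of chromosomes 1 to 22 and X it was 59.9%. For 8 or more tags the shares in these sets were 3 of 9, 21.1% and 13.7%. Low tag counts were thus common across the list and not particular to the stretch. The interval of peak 6, with 15 tags, was 8.40 to 24.7 (exact Poisson 95%), and that of a peak with 5 tags was 1.62 to 11.7. With intervals this wide, the order of single members by tags is a description of this library, and differences of a few tags were within counting error. The 10 peaks together held 70 of the 76115 tags in the list.

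Fold and tags did not follow each other among the members. The peaks with the most tags, peak 6 and peak 1, had the lowest folds, while peak 3 combined the minimum of tags with a fold above or equal to that of 94.0% of the list. The fold of 4 members lay on a whole multiple of the step of 4.90 that recurs across the list (peaks 7 and 10 at 3 steps, peaks 5 and 8 at 4 steps, within 0.012). Such multiples made up 3 of the 9 other peaks of the band (33.3%), 30.3% of the other peaks of chromosomes 1 to 22 and X, and 31 of the 289 other peaks of chromosome 17.

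The quotient of tags per kb and fold is called the background index here. Whether it follows the local background was not tested. Peaks 7 and 8 both had 5 tags, at widths of 130 and 124 bp, but folds of 14.7 and 19.61. Their indices therefore differed without a difference in tags. The index was lowest at peak 8 (2.06) and peak 5 (2.10), and highest at peak 6 (7.71), peak 4 (4.46) and peak 1 (3.62). Peaks on a whole multiple of the step were not always those of the lowest index: peaks 2, 9 and 3, which were not on one, had 2.26, 2.32 and 2.35, below the 2.58 and 2.62 of peaks 10 and 7, which were. The index of peak 6 was above or equal to that of 97.7% of the list, that of peak 8 only to that of 8.21%. Members less than 200 bp apart could thus differ widely: peaks 5 and 6, with 51 bp between them, had indices of 2.10 and 7.71. The index divides a tag count by the fold, and at 5 to 15 tags it carries the counting error of both.

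Set against the rest of 17p11.2, the stretch held 10 of the band's 19 peaks (52.6%, exact Clopper-Pearson 95% interval 28.9 to 75.6) on 4.92% of its placed length. Its density was 33.3 peaks per Mb, against 1.55 in the rest of the band (9 peaks on 5.8 Mb), a ratio of 21.5 (exact conditional 95% interval 7.84 to 59.7). The ratio was 8.94 against the rest of chromosome 17, with 3.73 peaks per Mb, and 13.8 against the rest of chromosomes 1 to 22 and X, with 2.42. The intervals cover counting error, treat close peaks as independent and are not corrected for the choice of the stretch. After merging of peaks within 10 kb, the stretch held 3 of 9 groups of the band (33.3%, interval 7.49 to 70.1) and the ratio to the rest of the band was 9.67 (1.56 to 45.3). The ratio was 32.8 with the stretch narrowed by 50 kb on each side and 40.8 without the 1 Mb of the band next to the centromere. With windows of 300 kb laid end to end on either side of the stretch, 16 others were fully placed in the band. Of these, 12 held no peak and the fullest held 2, and of 2 more windows cut by a gap in the build, 1 held 4 and the other none. Along chromosome 17, the 246 other fully placed windows held at most 7 peaks, with a median of 1 over all 247. These counts depend on where the windows begin: with windows of this length starting at any peak, fully placed and outside the stretch, the fullest held 5 in the band and 8 on the chromosome.

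**Figure D2:**
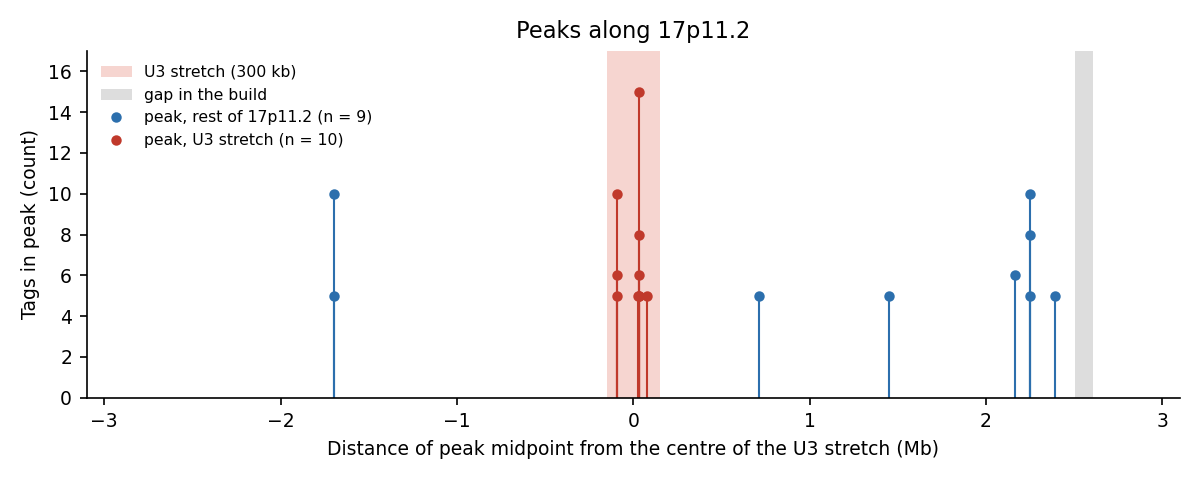
Peaks along 17p11.2: the x axis is the distance of each peak's midpoint from the centre of the U3 stretch in Mb, and the height of each line is the peak's tags. The shaded 300 kb hold 10 peaks of 5 to 15 tags, the rest of the band 9 peaks of 5 to 10 tags.

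The edges of the stretch fell in empty DNA. The nearest peak before it (17304339 to 17304418, 5 tags, fold 24.22) lay 1602 kb before peak 1, and the nearest after it (19715102 to 19715187, 5 tags, fold 24.51) 638 kb beyond peak 10. The deepest peaks of the rest of the band had 10 tags each, one of them (17304177 to 17304327) in that band's closest pair, with 11 bp to the next peak, and the other at 21251360 to 21251550. Close pairs were therefore found elsewhere in the band too, but its largest group with gaps of at most 10 kb had 3 peaks, against 6 for peaks 4 to 9.

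Neighbouring members were close together. The median distance between their midpoints was 1457 bp (range 136.5 bp to 118 kb, 9 distances, 95% interval by order statistics 169 to 42838 bp). It was 84.8 kb in the rest of the band, where 7 distances gave an interval of 126.5 bp to 733 kb that holds the value of the stretch, 151 kb in the rest of chromosome 17 and 229 kb in the rest of the list. The median of the stretch was 6263 bp with peaks at most 1 kb apart merged and 84878 bp with 10 kb merging. It was 63944 bp over the 3 members with at least 8 tags. The spacing of the rest of the band was not computed with the same merging or tag minimum. Its 84.8 kb is therefore not a matched value for these. A neighbour within 200 bp was found for 7 of the 10 members and for 4 of the 9 other peaks of the band. The share was 7.61% in the rest of chromosome 17 and 6.85% in the rest of chromosomes 1 to 22 and X. Within 10 kb the shares were 9 of 10, 5 of 9, 21.8% and 15.9%.

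In width, tags and fold the medians of the members lay near those of the other peaks. The median width was 134.5 bp (95% interval by order statistics 88 to 188), against 122 bp in the rest of the band and 126 bp in the rest of chromosome 17. Median tags were 5.5 (5 to 10), against 5 and 6. The median fold was 16.7 (13.0 to 19.6), against 18.4 in the rest of the band and 14.7 in the rest of chromosome 17. The median background index was 2.46 (2.10 to 4.46), against 2.90 and 3.10. Each of these medians outside the stretch lay inside the interval of the members. These intervals treat the 10 peaks as independent, although 7 of them had a neighbour within 200 bp. No difference was tested, and the overlap does not show that the members and the other peaks were alike.

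**Figure D3:**
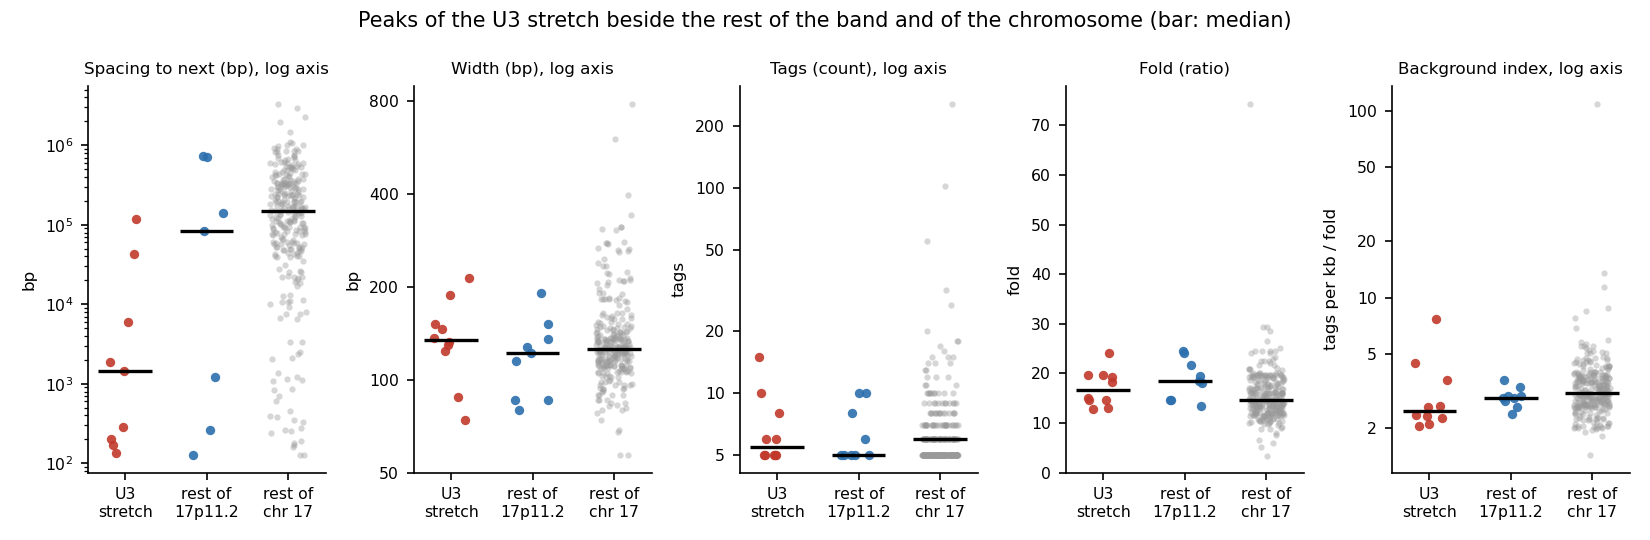
Spacing to the next peak in bp, width in bp, tags, fold and background index (tags per kb divided by fold) for the 10 peaks of the U3 stretch, the 9 other peaks of 17p11.2 and the 289 other peaks of chromosome 17, which include those 9; points are peaks and bars are medians. Spacing in the stretch has a median of 1457 bp against 84.8 kb in the rest of the band, but the spacings of the stretch (136.5 bp to 118 kb) lie inside the range of the band's (126.5 bp to 733 kb), and the values overlap in the other panels too.

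The members were shallower than peaks on the unplaced sequence of chromosome 17, contigs assigned to the chromosome but not placed along it in hg18. The 15 peaks there had a median of 19 tags (range 5 to 76), a median width of 336 bp, a median fold of 11.01 and a median background index of 5.22. Among the members, only peak 6 exceeded that index. The share of tags from repeated copies was not measured here, and its part in the height of the U3 peaks was not tested.

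With peaks at most 10 kb apart joined, peaks 4 to 9 formed 1 of 23 groups of 5 or more peaks on chromosomes 1 to 22 and X. They spanned 8.27 kb, against a median of 3.05 kb for the other 22 groups, of which 7 had more peaks. They held 44 tags, while the others held 30 to 3120 tags with a median of 84, and 3 of the others had fewer than 44. The median fold of this group was 16.7, and 6 of the other 22 groups had a lower one, their median being 19.6. The median background index of the U3 group was 2.47, and 7 of the others had a lower one, their median being 2.76.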

How the data were processed

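The ChIP library of SKOV-3 cells gave 1 deposited peak list without a header. Positions refer to hg18, per the submitters' processing notes. For the aligner, the peak caller with its thresholds, and the handling of tags with several matches, the answer is not given in the sources used here. Each peak's first value, read as a fold (a ratio to background), and the second, read as a tag count, are the authors' deposited values, and both readings come from the values themselves. Total depth is unknown. Members and lists were chosen with earlier results of these data known. Every peak of the stretch is given; for the rest of the band the rule named the nearest peak on each side, the closest pair and the deepest peak.

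Bands and placed contigs of hg18 came from circlize 0.4.16 and IRanges 2.36.0 (R 4.3.3). Deposited starts were read as counted from 0, as in BED files, and positions are printed from 1. Spacing is between midpoints, gaps are edge to edge. Peaks of 1 library are not replicates, and no test was run. Computations used Python 3.11.15, numpy 2.4.6, pandas 2.3.3, scipy 1.17.1 and, for global alignment, biopython 1.88. The functions for groups, ratios and intervals were tested on simulated data. Alternatives were other edges, tag and fold minimums, merging of neighbours, leaving out the deepest peak and other comparison sets. The planned comparison of U3 promoters and the planned placement of genes by hg18 coordinates were not run.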

Additional observations from a re-analysis of the deposited data

How the results depend on the processing

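Of 60 comparisons of a value with an alternative, 52 stayed inside the 95% interval of the reported value. This count is not a measure of stability, because the alternatives reuse the same few peaks and the intervals are wide. Moving each edge of the stretch by 50 kb inwards or outwards, or taking any overlap in place of the midpoint, kept all 10 members. Under these settings the share and the medians were unchanged by construction. Merging peaks at most 1 kb apart left 6, with a median width of 231 bp and 10.5 tags. Merging within 10 kb left 3, with a median spacing of 84878 bp and a median width of 2151 bp. Their median tags were 21 and their median background index was 0.403. Widths and tag sums are larger by construction. The index is lower by construction, since the gaps count in the merged width and the highest fold is kept. With at least 8 tags 3 members were left, at a median spacing of 63944 bp. The density ratio to the rest of the band ranged from 9.67 (10 kb merging) to 40.8 (without 1 Mb next to the centromere), against 21.5 as reported, and was 8.94 against the rest of chromosome 17. The share of the band's peaks fell to 33.3% with 10 kb merging. Of all peaks on chromosome 17, the stretch held 3.34%. The few tags and the single library limit every value. No paired analysis was possible because each group has 1 sample. The comparison of U3 promoters was not run.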
